A study of Homo sapiens with 6 samples.

Results

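The replication-dependent histone genes code for the bulk histones that package newly copied DNA. Members were the protein-coding genes of the RefSeq table for the assembly GRCh38.p14 whose symbols are H1-1 to H1-6, or H2AC, H2BC, H3C or H4C followed by a number. This gave 69 of the 19974 protein-coding genes on chromosomes 1 to 22 and X. Of these, 55 lie on chromosome 6, 13 on chromosome 1 and 1, H4C16, on chromosome 12. By protein they are 6 linker histone H1 genes, 17 H2A, 18 H2B, 13 H3 and 15 H4 genes. A member counted as having a peak when a peak lay within 1000 bp of the gene's interval, and unless stated otherwise a count asks for a peak in both lists described next.

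Accessible DNA was profiled by ATAC-seq: Tn5, a transposase, enters isolated nuclei, cuts exposed DNA and leaves sequencing adapters. The cells were wild-type hTERT-RPE1, a human retinal pigment epithelial line immortalised with telomerase, and there was no treated or mutant group. Titles divide the 6 libraries into R1 and R2, each of 3 libraries, without saying how the sets differ. A single merged peak list stands for each set, so no spread between libraries could be computed, nothing was tested, and all values describe pools. The R1 list had 143492 peaks, of which 142865 were on chromosomes 1 to 22 and X. These had a median width of 682 bp and a median fold over background of 5.04. Their median pileup at the summit, recovered from fold and p-value, was 72 fragments. The R2 list had 134940 peaks, 134351 of them on those chromosomes, with medians of 702 bp, a fold of 5.12 and 72 fragments. The peak lists do not tell cell types apart by presence alone. A peak lay at 11 of 12 genes that mark retinal pigment epithelium (all but KCNJ13), at both keratin genes KRT8 and KRT18, and at 5 of 6 genes that mark other cell types (all but ALB).

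Most genes of this family lie in tight clusters, have no introns, and are transcribed during S phase, when new chromatin is assembled. Their mRNAs end in a stem-loop that is bound by SLBP, in place of a poly(A) tail. NPAT, a substrate of the kinase CDK2 with cyclin E, gathers at the clusters and helps to switch them on. H2B promoters are known for the octamer element bound by OCT1 (POU2F1), CCAAT boxes are bound by NF-Y, and H4 promoters are bound by HINFP. H1-6, H2AC1 and H2BC1 code for testis histones.

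Promoter windows of RefSeq (GRCh38.p14), from 250 bases before to 50 after the start of a gene, were found for 64 of the 69 members. H4C1, H4C3, H2AC12, H3C11 and H3C12 had none in the table. The windows below contrast members of one type with and without a peak in both lists. Each reads 5′ to 3′ on the strand of the gene, and capitals mark the octamer ATTTGCAT, CCAAT and TATAAA on either strand, so that ATTGG is CCAAT and TTTATA is TATAAA on the other strand. None of the 3 motifs holds another. The H2B windows come first. H2BC8 (chr6:26216639-26216938, minus strand) had a peak. H2BC10 (chr6:26272681-26272980, plus strand) and the testis gene H2BC1 (chr6:25726527-25726826, plus strand) had none.
H2BC8: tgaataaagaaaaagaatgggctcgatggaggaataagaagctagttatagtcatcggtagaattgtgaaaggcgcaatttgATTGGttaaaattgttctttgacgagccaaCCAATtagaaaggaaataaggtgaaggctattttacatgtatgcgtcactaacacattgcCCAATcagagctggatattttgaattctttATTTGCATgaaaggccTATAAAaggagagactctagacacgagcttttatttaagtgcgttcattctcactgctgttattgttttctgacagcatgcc
H2BC10: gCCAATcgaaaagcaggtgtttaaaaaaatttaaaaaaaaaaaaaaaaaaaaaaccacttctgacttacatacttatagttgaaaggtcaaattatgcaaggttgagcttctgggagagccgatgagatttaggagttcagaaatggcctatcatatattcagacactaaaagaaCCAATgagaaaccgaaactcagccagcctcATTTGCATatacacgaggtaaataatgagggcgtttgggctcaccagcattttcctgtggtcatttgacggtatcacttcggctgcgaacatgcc
H2BC1: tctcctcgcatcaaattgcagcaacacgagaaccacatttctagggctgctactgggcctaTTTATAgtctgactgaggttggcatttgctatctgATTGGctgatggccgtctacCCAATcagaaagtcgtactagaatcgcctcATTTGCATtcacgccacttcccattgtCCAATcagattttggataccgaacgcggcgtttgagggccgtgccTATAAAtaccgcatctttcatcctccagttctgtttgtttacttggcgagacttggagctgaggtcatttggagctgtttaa

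The next windows are of H4 genes. H4C4 (chr6:26189063-26189362, minus strand) had the H4 peak with the best mean percentile of fold and H4C6 (chr6:26240143-26240442, plus strand) had none. H4C14 (chr1:149832407-149832706, plus strand) had a peak, and its window is identical to that of H4C15 over 300 bases.
H4C4: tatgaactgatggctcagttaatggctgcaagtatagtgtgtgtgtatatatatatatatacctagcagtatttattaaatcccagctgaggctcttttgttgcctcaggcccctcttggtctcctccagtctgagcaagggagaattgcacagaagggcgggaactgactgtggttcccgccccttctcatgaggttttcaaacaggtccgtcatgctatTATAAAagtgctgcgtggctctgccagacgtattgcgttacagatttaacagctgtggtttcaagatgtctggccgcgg
H4C6: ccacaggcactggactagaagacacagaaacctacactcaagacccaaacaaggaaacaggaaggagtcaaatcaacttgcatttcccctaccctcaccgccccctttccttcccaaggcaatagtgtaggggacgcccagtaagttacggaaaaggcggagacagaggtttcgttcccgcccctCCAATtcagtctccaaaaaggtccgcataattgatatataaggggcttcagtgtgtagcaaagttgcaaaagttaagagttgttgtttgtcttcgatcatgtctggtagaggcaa
H4C14: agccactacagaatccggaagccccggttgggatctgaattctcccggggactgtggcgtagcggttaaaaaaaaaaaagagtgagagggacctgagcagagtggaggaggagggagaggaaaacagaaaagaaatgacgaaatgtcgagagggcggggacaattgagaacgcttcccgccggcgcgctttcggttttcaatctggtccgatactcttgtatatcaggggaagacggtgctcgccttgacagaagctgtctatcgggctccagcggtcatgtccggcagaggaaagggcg

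The last windows are of linker histone genes. H1-3 (chr6:26234938-26235237, minus strand) had the highest-ranked H1 peak and the testis gene H1-6 (chr6:26108086-26108385, minus strand) had none.
H1-3: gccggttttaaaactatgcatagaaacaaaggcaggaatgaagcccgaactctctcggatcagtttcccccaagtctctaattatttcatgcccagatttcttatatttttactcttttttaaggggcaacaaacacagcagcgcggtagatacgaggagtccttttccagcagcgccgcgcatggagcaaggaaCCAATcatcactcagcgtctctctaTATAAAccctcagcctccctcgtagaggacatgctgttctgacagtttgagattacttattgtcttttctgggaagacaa
H1-6: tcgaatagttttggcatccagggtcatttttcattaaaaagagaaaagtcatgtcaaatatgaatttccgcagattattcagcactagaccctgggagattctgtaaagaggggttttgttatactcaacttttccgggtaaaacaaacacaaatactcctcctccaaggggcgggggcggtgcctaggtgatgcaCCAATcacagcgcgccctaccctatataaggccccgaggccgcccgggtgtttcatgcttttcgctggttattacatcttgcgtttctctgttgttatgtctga

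The motifs divided the members by histone type. The octamer stood in 26 of the 64 windows (40.6%), against 1.72% of the windows of 15812 protein-coding genes in the table. It was in 14 of 18 H2B and 11 of 16 H2A windows, in 1 of 11 H3 windows, and in none of the 6 H1 or 13 H4 windows. The single H3 window is that of H3C4, which has the same start as H2AC7. Many H2A and H2B genes are divergent pairs whose windows overlap, so that 1 octamer is often counted for both genes. CCAAT stood in 54 windows (84.4%, against 36.4% of all), which were all those of H1, H2A, H2B and H3 genes and 3 of the 13 of H4 genes. TATAAA stood in 42 (65.6%, against 9.75%), and in 34 of them (53.1% of the members, against 3.67% of all) it began 20 to 40 bases before the start on the strand of the gene. The median GC content of the windows was 43.2%, against 62.7% over all.

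The same motifs occurred with and without peaks. Among the 52 members in the table with a peak in both lists, 22 held the octamer, 43 CCAAT and 36 TATAAA. Among the 11 with a peak in neither list, 4 held the octamer, 10 CCAAT and 5 TATAAA. H2BC10 and H2BC1, printed above, each have an octamer and lack a peak, whereas H4C14 has none of the 3 motifs and had a peak in both lists. A match describes these letters in this window only.

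A peak was present in both lists at 55 of the 69 histone genes (79.7%), against 84.0% of all protein-coding genes. In the R1 list it was at 55 (79.7%, against 85.2%) and in the R2 list at 57 (82.6%, against 84.7%). The share of the histone genes was thus close to, and below, that of all genes. The share over all genes takes in long genes, which can hold a peak anywhere along the body. What part length plays in these shares was not tested, and the short genes compared next were chosen by length alone. Of the members, 61 have an interval under 1000 bp, and 47 of these (77.0%) had a peak in both lists, whereas 89 of 462 other protein-coding genes of that length did (19.3%). Within the promoter window, which has the same length for every gene, a peak of both lists lay at 52 of 64 histone genes (81.2%), against 69.0% of all genes in the table. The share with a strong peak was below that of all genes, a background that again includes long gene bodies. A peak at or above its list's median fold stood in both lists at 29 of 69 histone genes (42.0%), against 71.7% of all genes.

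The linker histone genes came out as 4 of 6. H1-2 had R1 and R2 folds of 6.26 and 6.32, H1-4 had 4.74 and 4.38, and H1-5 had 6.12 and 6.02. H1-3 had the highest-ranked H1 peak, with R1 and R2 folds of 10.8 and 10.4, above 92.3% and 91.6% of the peaks of those lists. Its pileup of 165 and 162 fragments over a background of 14.4 and 14.7 was low for a histone gene. H1-1 and the testis gene H1-6 had no peak, and their nearest peaks lay 2606 and 2723 bp away in R1 and 2610 and 2738 bp away in R2.

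Of the H2A genes 16 of 17 had a peak, and of the H2B genes 15 of 18. These 2 core histones form a dimer in the nucleosome. The highest-ranked H2A peak was at H2AC8, and it is shared with its divergent partner H2BC8. Its fold was 8.91 in R1 and 8.18 in R2, and its pileup 459 and 417 fragments. By the same rule the first H2B gene was H2BC18 on chromosome 1, with folds of 13.6 and 13.5. That peak lies in the body of the long H2BC18 interval and also within FCGR1A, the gene of an Fc receptor. The peak over the start of H2BC18 had folds of 7.87 and 7.65 and was shared with H3C13.

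Among the members with a start in the promoter table there were 11 divergent H2A and H2B pairs, with starts 194 to 248 bp apart (median 236). In 10 of the 11 a peak lay between the starts in both lists. The space between such starts lies within the promoter windows of these genes. The count is thus not separate from the promoter-window share of the histone genes, 81.2% against 69.0% of all genes. The share over other divergent pairs is not given here. The exception was H2AC1 and H2BC1, the testis pair, with starts 215 bp apart and the nearest peaks 5061 and 5775 bp away in R1 and 5376 and 6090 bp away in R2. The H3C7 and H2BC9 pair, with starts 979 bp apart, also had none between them. H2AC12, which has no start in the table, could not be paired, and it shared a peak with H2BC12. H2BC9 and H2BC10 were the other H2B genes without a peak.

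Of the H3 genes 9 of 13 had a peak in both lists, and of the H4 genes 11 of 15. H3 and H4 form the tetramer at the centre of the nucleosome. H3C6 led the H3 genes with R1 and R2 folds of 9.77 and 9.08, above 87.4% and 84.1% of the peaks of each list. That peak covers the first of the gene's 2 RefSeq starts, and the promoter window of the other had none. H4C4 had the best mean percentile of the H4 genes, with folds of 11.4 and 9.41, above 94.6% and 86.2%, and with pileups of 303 and 240 fragments. In R2 alone H4C3 stood higher, with a fold of 9.63. No peak was called at H3C7, H3C8, H3C12, H4C6, H4C9 or H4C7, which codes for the diverged H4 protein H4G. H3C11 and H4C13 shared 1 peak that only the R2 list held, of 770 bp, with a fold of 2.84, above 17.8% of that list, and a pileup of 24 fragments.

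The median fold of a type, over its members with a peak in both lists, was lowest for H2A in both lists and highest for H4. It was 6.19 in R1 and 6.17 in R2 for H1, 4.91 and 4.54 for H2A, 5.32 and 5.34 for H2B, 5.81 and 4.66 for H3, and 7.75 and 7.05 for H4. Many of the H2A, H2B and H3 genes share a peak with a neighbour, whereas most H4 peaks touch 1 member, so these medians rest on overlapping sets of peaks. The plot of the strongest peak at each gene shows this as pairs of points at the same height.

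**Figure D1:**
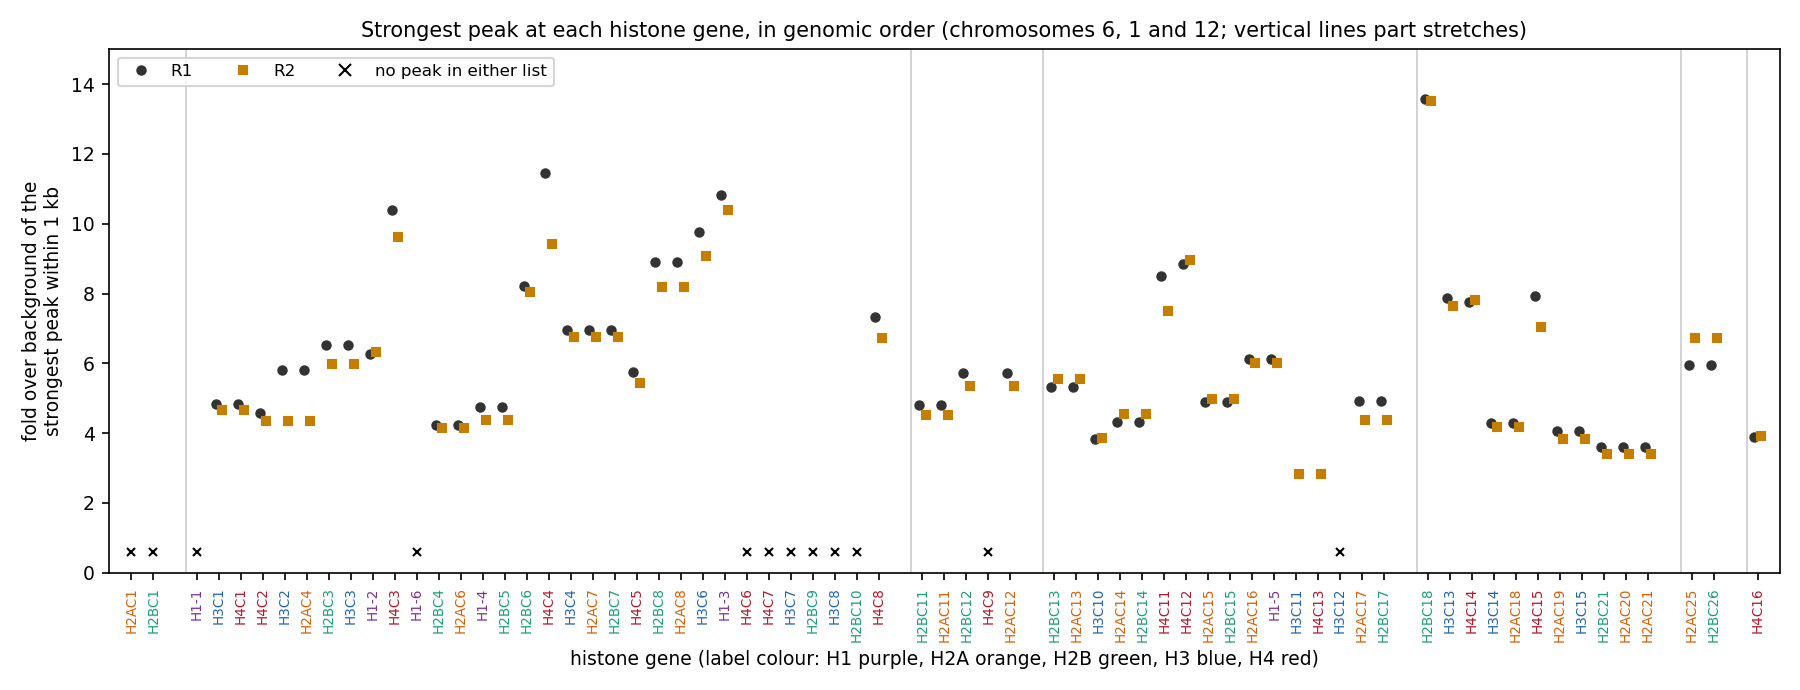
Fold over background (vertical axis) of the strongest peak within 1 kb of each of the 69 histone genes in genomic order (horizontal axis), with circles for R1, squares for R2 and crosses for genes with no peak in either list. Folds run from 3.59 (R1) and 2.84 (R2) to 13.6 and 13.5, and the crosses include a run of 6 neighbouring genes on chromosome 6.

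On chromosome 6 a peak was present in both lists at 41 of 55 histone genes (74.5%) and on chromosome 1 at all 13 of 13. The difference was −25.5 percentage points, and it has no test because neighbouring genes share peaks and each list is a pool. Of the other protein-coding genes, 852 of 994 (85.7%) on chromosome 6 and 1725 of 2049 (84.2%) on chromosome 1 had a peak. With strong peaks only, 23 of 55 (41.8%) on chromosome 6 and 6 of 13 (46.2%) on chromosome 1 remained, a difference of −4.34 points.

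Some of these genes have near-identical copies, and the sources used here do not give the treatment of reads that map to several places. The promoter windows of H4C11 and H4C12 on chromosome 6 match at 98.3%, with 5 differing bases. On chromosome 1 those of H2AC18 and H2AC19 are identical over 299 bases, those of H3C14 and H3C15 over 296, and those of H4C14 and H4C15 over 300. Reads that fall wholly within identical stretches cannot be told apart, so the values of these genes are uncertain. The comparison covers the promoter windows only, and the peaks are longer. Without these 8 genes the counts were 39 of 53 on chromosome 6 and 7 of 7 on chromosome 1, and 47 of 61 over all members.

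The chromosome 6 genes fall into 4 stretches when gaps over 200000 bp part them. The first holds the testis pair H2AC1 and H2BC1, with no peak at either. The second, from 26017032 to 26285534, holds 32 genes from H1-1 to H4C8, and 24 had a peak in both lists. The third holds 5 genes around 27132316 to 27147562, and 4 had one. The exception was H4C9, which lies inside the interval of H2BC12, 5163 bp from the nearest R1 peak and 5074 bp from the nearest R2 peak. The fourth, from 27807479 to 27893891, holds 16 genes, of which 13 had a peak in both lists and 15 in R2.

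Within the second stretch, 6 consecutive genes lacked a peak. These are H4C6, H4C7, H3C7, H2BC9, H3C8 and H2BC10, between H1-3 and H4C8. The peak-free run around them covered 49290 bp in R1, from 26235382 to 26284671, and 49252 bp in R2, from 26235460 to 26284711. Runs that long or longer made up 6.09% of all gaps between peaks in R1 and 6.68% in R2, where the median gaps were 7525 and 7988 bp. Distances from these genes to the nearest peak reached 16233 bp in R1 and 16155 bp in R2, at H2BC9. In the last stretch H3C12 lay 1805 bp from an R1 peak and 1838 bp from an R2 peak.

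**Figure D2:**
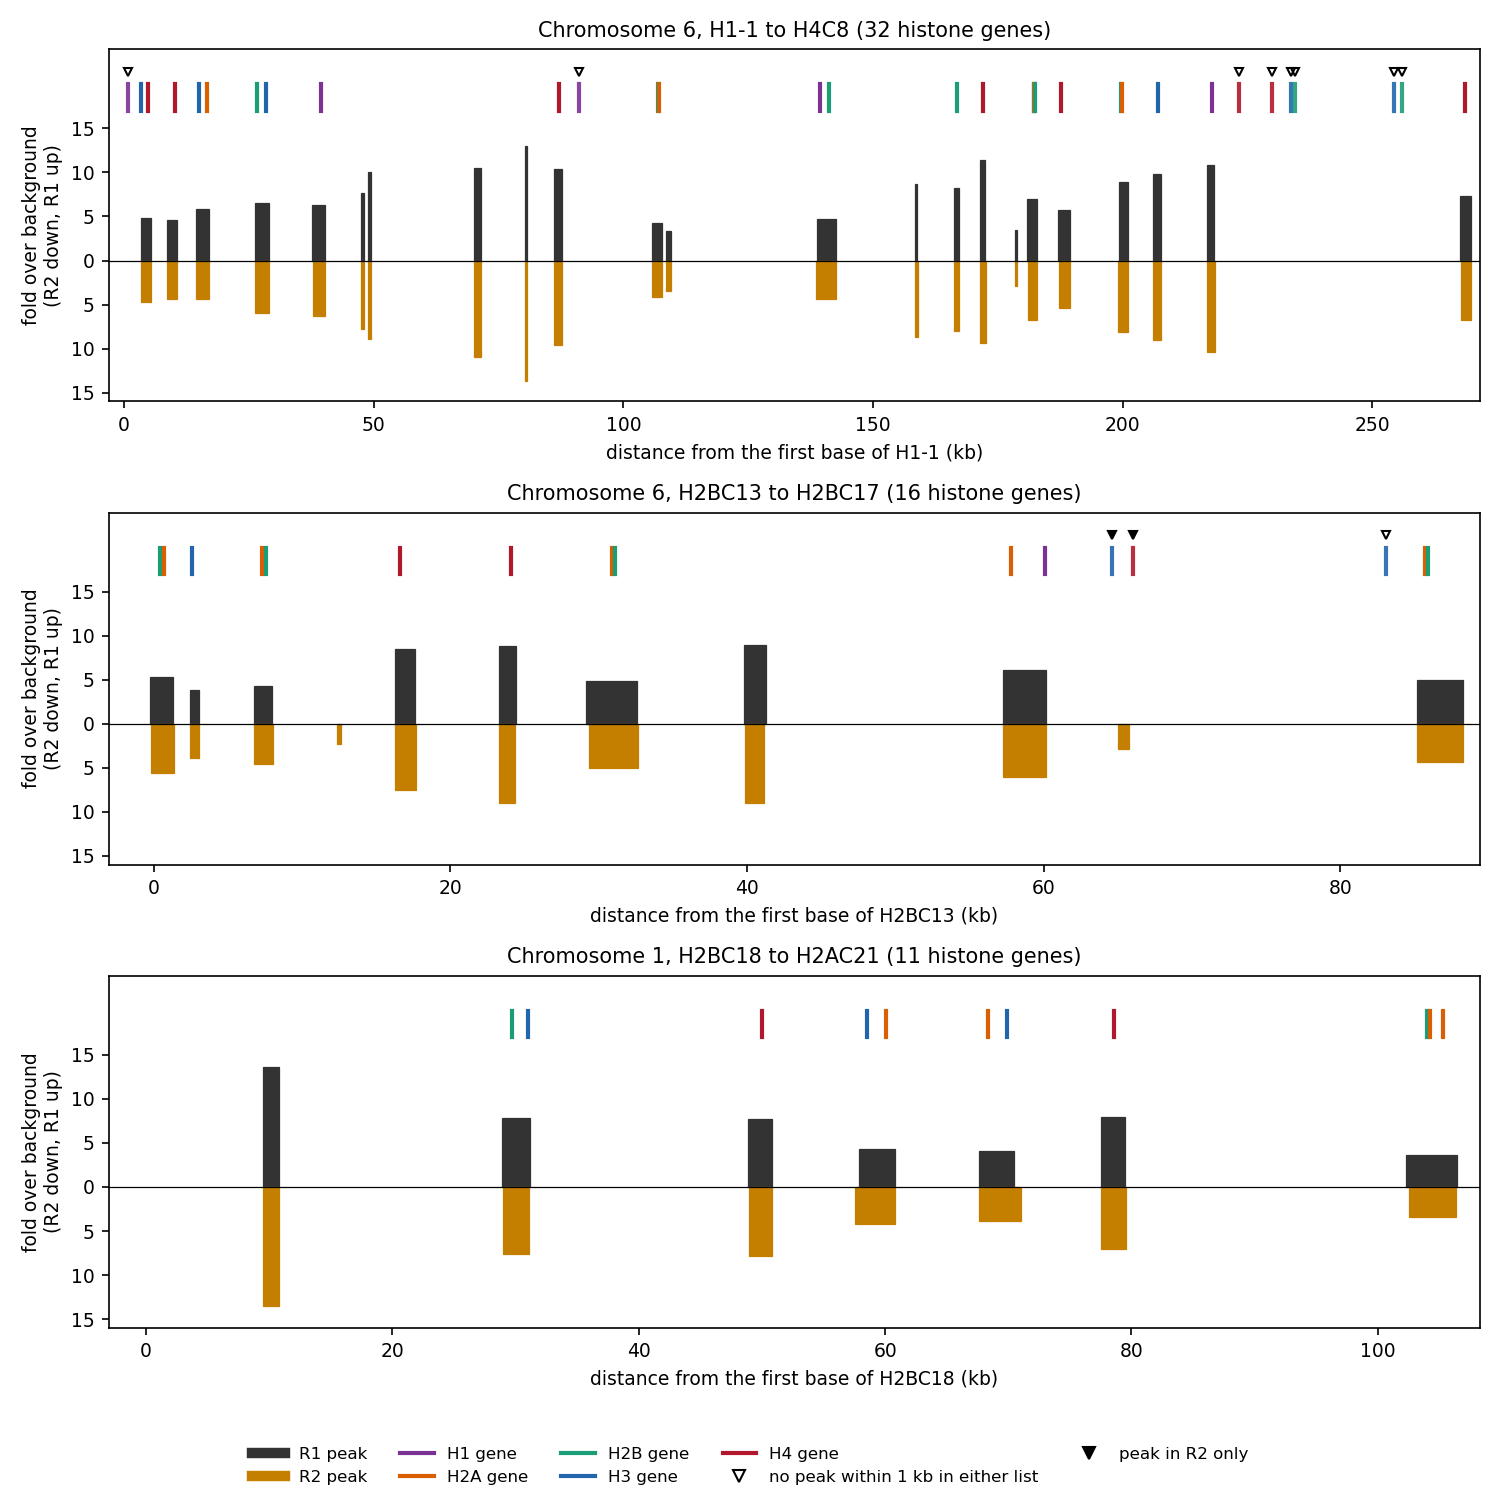
Peaks in the 3 longest stretches of histone genes (distance in kb along each), with bar height as fold over background, R1 upward and R2 downward, bar width as peak width, and coloured ticks for gene starts. Open triangles mark genes with no peak within 1 kb in either list, filled ones a peak in R2 only; the run of 6 stands towards the right of the top panel, where H1-1 and H1-6 also carry open triangles, and the 11 chromosome 1 genes have none of these marks.

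Regions on chromosome 6 differed widely in height. H4C3 combined a high fold, 10.4 in R1 and 9.63 in R2, with a pileup of 458 and 413 fragments. H4C11 and H4C12, the near-identical copies, had folds of 8.51 and 8.85 in R1 and 7.502 and 8.959 in R2, but pileups of only 186 and 145 fragments in R1 and 165 and 142 in R2. H2BC6 was similar, with folds of 8.21 and 8.04 and pileups of 206 and 209 fragments. These single-gene peaks, with that of H1-3, stood on the lowest backgrounds of the cluster, from 14.4 fragments at H1-3 to 24.2 at H2BC6 in R1.

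At the other end, H3C10 had the shortest region, 637 bp, with R1 and R2 folds of 3.83 and 3.86 over a background of 91.2 and 91.4 fragments. H1-4 and H2BC5 shared the widest region of chromosome 6, 3934 bp, with folds of 4.74 and 4.38. H2BC4 and H2AC6 shared a region with folds of 4.22 and 4.15, and a second region at H2AC6 had 3.29 and 3.48. H3C4 counted through the region it shares with H2AC7 and H2BC7 (6.96 and 6.76), because its RefSeq interval, 26196784 to 26199293, contains H2AC7. A second RefSeq start of H3C4, inside that interval, had no peak over its promoter window. A further R1 peak of 374 bp, with a fold of 3.45, ended within 1000 bp of H3C4, and its R2 counterpart, with a fold of 2.85, just outside.

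The genes between the histone genes gave a comparison within the same wider spans. On chromosome 6, 19 other protein-coding genes lie between the first and the last member, and 15 had a peak in both lists (78.9%). Of these neighbours only HFE lies inside a stretch of histone genes, and the others lie in the gaps between stretches. Examples are ABT1, an activator of basal transcription, whose fold was 9.80 in R1 and 8.89 in R2, and the butyrophilin genes BTN2A1 (12.7 and 12.1) and BTN2A2 (13.2 and 13.1). BTN1A1 had a weak peak in R1 only, with a fold of 2.69, and the transporter genes SLC17A2 and SLC17A3 had none. The median fold of the strongest peak over those 15 genes was 12.4 in R1 and 12.1 in R2, with a median pileup of 284 and 233 fragments and a background of 18.8 and 17.8. Over the 41 histone genes of chromosome 6 with a peak in both lists the median fold was lower, 5.74 in R1 and 5.44 in R2, and the median pileup higher, 391 and 358 fragments, over a background of 66.6 and 64.8. The strongest peak of a neighbour can lie anywhere along its gene body.

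Peaks at the histone genes were wide and tall, and stood on a high local background. The 55 genes with a peak in both lists shared 36 distinct regions, 27 on chromosome 6, 8 on chromosome 1 and 1 on chromosome 12. Of the 36 regions, 19 touched more than 1 member. Those that touched 1 member were by median narrower, with lower pileup and background and higher fold, in both lists. Over all 36 regions the median width was 2046 bp, with a range of 637 to 4078 bp. The median pileup was 389.5 fragments in R1 and 370.0 in R2, at median percentiles of 97.1 and 96.2 of each list. The median fold was 5.89 and 5.77, at percentiles of only 58.4 and 56.8. The median local background was 59.6 fragments in R1 and 59.5 in R2, at percentiles of 96.5 in both. In both lists 29 of the 36 regions were at or above the 90th percentile of pileup, 28 were so for background, and 2 were so for fold. A fold is by construction the pileup over the local background.

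**Figure D3:**
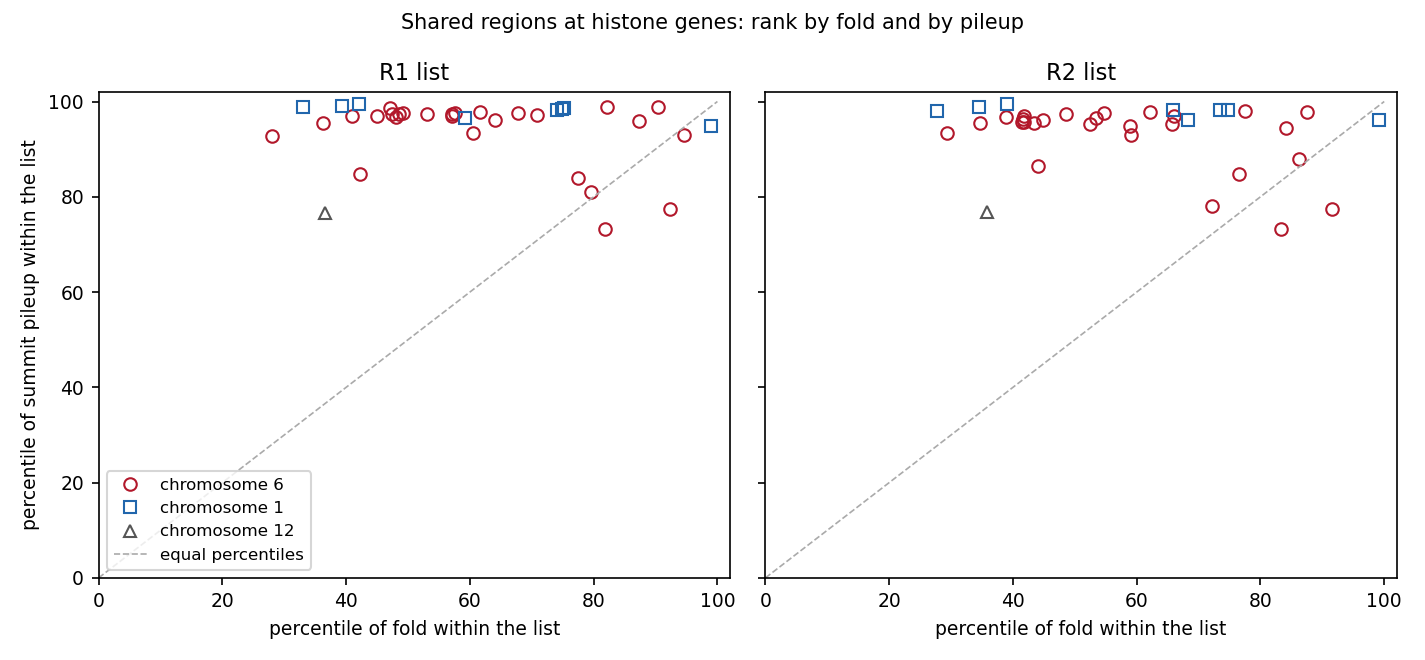
Percentile of fold (horizontal axis) against percentile of summit pileup (vertical axis) within each list for the 36 shared regions, in R1 (left) and R2 (right), with circles for chromosome 6, squares for chromosome 1 and a triangle for chromosome 12. The dashed line marks equal percentiles; most regions stand above it, with a median pileup percentile of 97.1 and a median fold percentile of 58.4 in R1.

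The same contrast held against other genes at the promoter window. The 52 histone genes with a peak there had a median pileup of 396.5 fragments in R1 and 380.0 in R2, against 318 and 330 over 10381 other genes. Their median fold was 5.73 and 5.39, against 7.60 and 7.70. Their median background was 65.5 and 64.6 fragments, against 38.9 and 39.9, and their median width 2236 and 2237 bp, against 1449 and 1528 bp. The quartiles of pileup, 366 to 436 for the histone genes in R1, overlapped those of the other genes, 212 to 401.

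Whether the chromosome 6 or the chromosome 1 peaks had the higher fold turned with the unit of counting. Counted by gene, the median fold was 5.74 in R1 and 5.44 in R2 on chromosome 6, and 4.29 and 4.17 on chromosome 1. Counted by distinct region, it was 5.81 and 5.56 on chromosome 6, and 6.86 and 6.89 on chromosome 1. The low-fold peaks of chromosome 1 each touch 2 or 3 members. Pileup was lower on chromosome 6 by region in both lists, at medians of 386 and 356 fragments, than on chromosome 1, at 440.5 and 425.5. These medians include regions at the identical or near-identical copies described above, whose values are uncertain. On chromosome 1 these are the regions of H4C14, of H3C14 and H2AC18, of H2AC19 and H3C15, and of H4C15. Medians without the copies are not given here. The region medians for width were 1975 bp on chromosome 6 and 2258 bp on chromosome 1. No direction of fold between the clusters is drawn from these values.

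On chromosome 1 the members lie in a stretch of 11 genes from 149782689 to 149887965 and a pair at 228457364 to 228458558. The peaks over the H4 starts had a fold of 7.75 (R1) and 7.81 (R2) for H4C14, and of 7.92 and 7.05 for H4C15. The H3C14 and H2AC18 region had folds of 4.29 and 4.17, and pileups of 509 and 493 fragments over a background of 117.8 and 117.4. The H2AC19 and H3C15 region, which also touches the H4C15 interval, had 4.08 and 3.83. H2BC21, H2AC20 and H2AC21 shared the widest of the 36 regions, 4078 bp from 149885001 to 149889078, with folds of 3.59 and 3.39. That region had a pileup of 458 and 416 fragments over a background of 126.8 and 121.9. H2AC25 and H2BC26, the pair far along the chromosome, shared a peak whose fold was 5.96 in R1 and 6.74 in R2 with 377 and 425 fragments. H4C16 on chromosome 12 had folds of 3.88 and 3.92.

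Peak cover of the histone genes was highest from about the start into the gene, and was above that of other genes on both sides. Cover beside a start can come from a peak at a neighbouring histone gene. At the start itself 81.2% of 64 histone genes were covered in each list, against 62.3% of 15748 other genes in R1 and 65.2% in R2. In R1 it stayed at that level up to 400 bp past the start, whereas 65.6% were covered at 400 bp before the start. At 1000 bp before the start 37.5% of the histone genes were covered in each list, against 14.9% and 14.2% of the others. At 1000 bp past the start, in the direction of the gene, 45.3% and 48.4% of the histone genes were covered, against 28.95% and 28.7%. Most histone genes end before that point, as 61 of the 69 members have an interval under 1000 bp. Summits of the peaks over the promoter window lay a median of −3.5 bp from the start in R1 and 43.5 bp in R2. Positive values point in the direction of the gene and can lie past its end. The summit lay within 250 bp of the start for 35 of the 52 genes in R1 and 30 in R2. The share over other genes is not given here, so these counts have no background. Genes that share a peak share its summit, which is counted once for each gene.

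**Figure D4:**
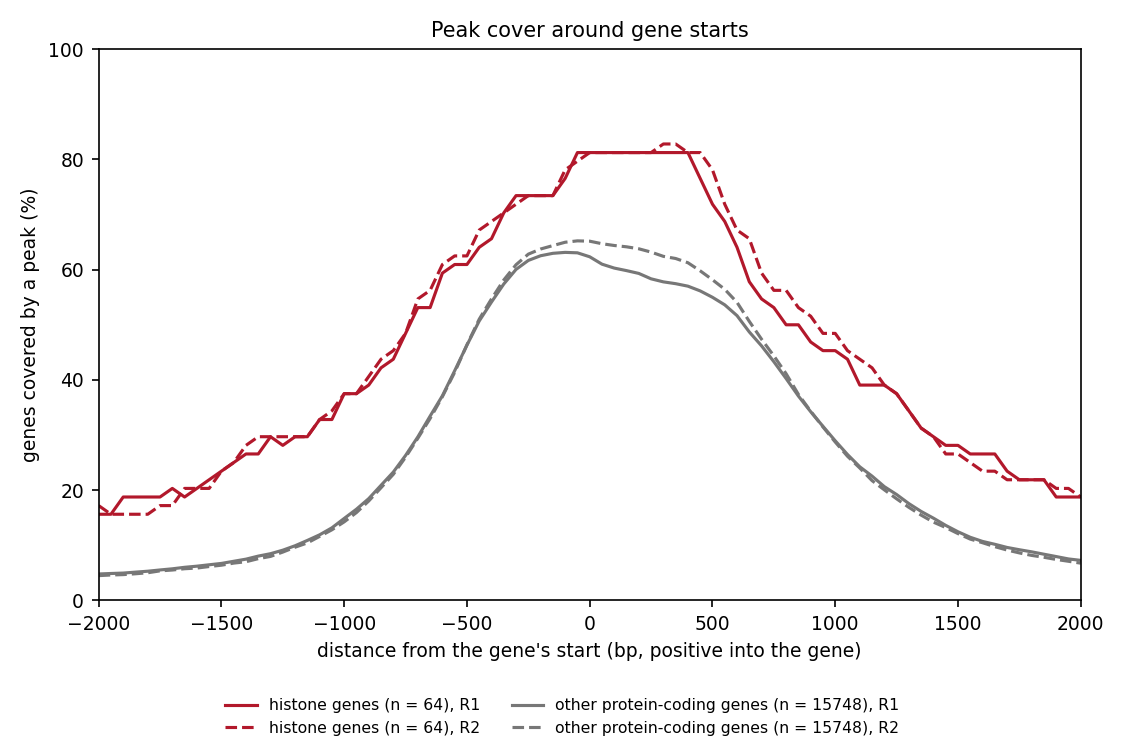
Share of genes covered by a peak (vertical axis, %) by distance from the start of the gene (horizontal axis, bp, positive in the direction of the gene, also past its end) for 64 histone genes in red and 15748 other protein-coding genes in grey, with solid lines for R1 and dashed lines for R2. The red lines stand above the grey ones, with 81.2% against 62.3% (R1) and 65.2% (R2) at the start.

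Genes of the same protein families that are not members were listed for contrast. Of 11 somatic histone variants, which are made outside S phase too, 11 had a peak in both lists, against 84.0% of all genes. Among them were MACROH2A1, a variant of inactive chromatin, with R1 and R2 folds of 8.82 and 8.99, MACROH2A2 (9.18 and 8.002) and CENPA, the centromeric H3 (8.03 in both). Of 10 germline or tissue-restricted variants, 2 had one, H1-8 of the oocyte and H2AB2. H3-5 had a peak in R2 only, and among those with none were H1-7 and H2AB1.

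The factors that act on histone genes were also covered. All 12 listed for their transcription had a peak in both lists. The highest-ranked were POU2F1 (11.9 in R1 and 12.7 in R2), CDK2 (10.95 and 10.5) and NFYC, a subunit of NF-Y (10.7 and 9.74). The folds of CDK2 are also those of its neighbour PMEL, which is among the retinal pigment epithelium genes counted above. All 9 listed for 3′ end processing and mRNA binding had one. The highest-ranked were ERI1, a nuclease that trims histone mRNA ends (13.9 and 13.1), LSM10, a part of the U7 particle (12.5 and 13.45), and SLBP (11.6 and 13.02). With 84.0% of all genes having a peak, full counts in lists of this size say little about the lists.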

How the data were processed

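ATAC-seq of wild-type hTERT-RPE1 cells gave 6 libraries, and the authors deposited 1 merged peak list for each set of 3. Peaks carry a fold over background (a ratio), −log10 p-values and −log10 q-values and a summit offset, all as the authors deposited them. Coordinates are on hg38, per the submitters' processing notes. Aligner, peak caller, any Tn5 shift, treatment of multi-mapping reads and depth of single libraries: not given in the sources used here. A deposited fold was used only to describe or rank peaks within its list.

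Pileup and background were recovered from fold and p-value, with 1 added to both pileup and background before their ratio is taken as the fold. A whole pileup gave the deposited p-value within 0.001 on the −log10 scale for nearly all peaks. The relation is inferred from the values. The unit of pileup is called fragments here, but the sources used here do not name it. The lowest background, 7.93 fragments in R1 and 7.79 in R2, is the only measure of depth used.

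Intervals, starts, strands and promoters are RefSeq's for GRCh38.p14. A percentile is the rank of a peak's value, counted from the lowest, as a share of all peaks of the list. Tied peaks take their average rank. Shared regions are R1 and R2 peaks joined where they overlap by at least 1 bp. Promoter windows of the same histone type were compared without gaps, at the best shift of up to 50 bases. No test was run, since each list is a pool. The members and lists were chosen with earlier results of these data known.

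By the rule for named genes any member may be named, and those given in full were the member of each type with the best mean percentile of fold, those with no peak or a peak in 1 list, the chromosome 1 and testis members, the widest region, up to 3 best and the first 2 peakless genes of each list, and the first 3 neighbours with and without a peak. Alternatives covered stricter q-values and folds, single lists, windows of 0, 500 and 2000 bp, and summits. The scripts were tested on simulated data. Software was matplotlib 3.10.9, scipy 1.17.1, pandas 2.3.3, numpy 2.4.6 and Python 3.11.15.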

Additional observations from a re-analysis of the deposited data

How the results depend on the processing

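Of 86 alternative values, 82 stayed within the range set for their result, and 0 reversed. Keeping only peaks at or above the median fold of their list moved the count of histone genes with a peak to 29, that of chromosome 6 to 23 and that of chromosome 1 to 6. Leaving out the genes with near-identical promoter copies, an alternative chosen after seeing the data, gave 7 of 7 on chromosome 1. The chromosome 6 minus chromosome 1 difference was −25.5 points. The range set for its alternatives, −38.3 to −0.691, was a Wilson binomial interval that takes the genes as independent. Members share regions, so that range is no test of the difference, and where its ends fall carries no weight. The difference was −4.34 with peaks at or above the median fold and −9.65 when the summit had to lie in the window. It was −23.6 with a window of 2000 bp and −21.8 in R2 alone. All these counted as within that wide range. No paired analysis was possible because the lists are pools and no test was run. The pools leave the spread between libraries unknown, and no counting interval was computed for single regions. Neighbouring genes that share a region are not independent.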

Other observations

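The span from the first to the last chromosome 6 member, which includes the gaps between stretches, also holds histone pseudogenes and many tRNA genes. Of 13 histone pseudogenes between the members of chromosome 6, 6 had a peak within 1000 bp in both lists and 7 in R2, and both of those on chromosome 1 had one. Several of these peaks are those of neighbouring histone genes, such as the H2BC19P peak that is shared with H3C14 and H2AC18. Of 98 tRNA genes between the chromosome 6 members, 65 had a peak in both lists (66.3%). The shares over all tRNA genes and all pseudogenes are not given here, so these counts have no background. One region at a histone gene, that of H4C8, also holds a tRNA gene, TRX-CAT1-2.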
